A study of Mus musculus with 10 samples.

Results

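The 10 genes described here encode the laminin chains of skeletal muscle and the receptor that binds them: the α chains Lama2, Lama4 and Lama5, the β chains Lamb1 and Lamb2, the γ chain Lamc1, the integrin subunits Itga6, Itga7 and Itgb1, and the integrin adaptor Ilk. They were taken by symbol, as a list, out of the 21098 genes to which the deposited counts could be assigned. The gastrocnemius (GAS) of male C57BL/6J mice with diet-induced obesity (DIO) was sequenced in 2 groups of 5 libraries. All mice, labelled wild type, had received a high-fat diet (D12492i) from 9 weeks of age for 9 weeks and stayed on it during the treatment. They are labelled as 30 weeks old at the end, which is less than the stated intervals add up to. Treated mice (ASO, labelled RES-010) were injected subcutaneously once a week for 14 weeks with 10 mg/kg of an LNA antisense oligonucleotide against miR-22, and control mice (CTRL) with the same volume of 0.9% saline. The control was therefore the vehicle and not an oligonucleotide of another sequence, and no lean group was compared here. The libraries are numbered 1 to 5 per group, and nothing in the labels states outright that each came from its own mouse, so the p-values measure the spread between these libraries.

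A laminin is a trimer of 1 α, 1 β and 1 γ chain that polymerizes into the sheet of the basement membrane around every muscle fiber. Lama2 with Lamc1 and either Lamb1 or Lamb2 makes the laminins of the fiber surface, whereas Lama4 and Lama5 are known from vessels, nerves and the neuromuscular synapse, where Lamb2 is enriched. On the fiber, laminin is held by dystroglycan and by the integrin made of Itga7 and Itgb1, and Ilk links the tail of Itgb1 to actin. Loss of LAMA2 or ITGA7 causes congenital muscular dystrophy or myopathy in humans.

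The sequence of miR-22-3p (RefSeq), with the seed from base 2 to base 8 in capitals, is shown because it is the ASO's target, together with the only hexamer match found in the genes described here:
mmu-miR-22-3p: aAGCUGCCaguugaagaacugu
Lama4 3′UTR: gatgtgattttaGCAGCTcaggacgcacat

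The capitals in the Lama4 line mark the match to seed bases 2 to 7, and the whole stretch printed, flanks included, is chr10:38987289-38987318 on the plus strand of GRCm39. The longest 3′UTR annotated for a gene, between 113 bp (Lamb2) and 3549 bp (Itga6), was searched on the transcribed strand. The heptamer GGCAGCT, complementary to bases 2 to 8, was found in 0 of the 10, against 16.3% of 21540 coding genes. The shorter hexamer GCAGCT, which every heptamer match also contains, was found in 1 of the 10, against 40.1% of coding genes. The Lama4 match lies in a longer transcript, past the end of the counted Lama4 segment. These shares are not matched for 3′UTR length.

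Library totals lay between 1606909 and 2116720 counts in CTRL and between 2239186 and 2632560 in ASO, so each treated library was deeper than each control. Quasi-likelihood F-tests in edgeR, adjusted by the Benjamini-Hochberg method over all genes, gave the adjusted p-values below. Of 7813 genes tested, 11.8% were higher and 17.4% lower in ASO at an adjusted p under 0.05. Neither miR-22 nor its host gene is counted in the table, so the labels could not be checked against the target. Levels are CPM, the count scaled by edgeR to the TMM-corrected library total, and values after ± are SDs over n = 5 libraries per group unless called a standard error (SE). Of 12 myofiber markers, Acta1 was at 39783 ± 9046 CPM and Ckm at 19251 ± 4623 CPM in CTRL. The sum over the 12 markers lay between 45738 and 87340 CPM in CTRL and between 92875 and 148679 CPM in ASO, without overlap, although Mb and Tnnt3 had 0 counts and Myh1, Myh2, Myh4 and Des 42 or fewer in all. Of the 6 myofiber markers tested, 3 rose (Actn3, Atp2a1 and Ckm), and their median log2 fold change was 1.01, beside −0.03 for all genes tested. The part of this difference in the values below was not tested.

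What the table measures differs from gene to gene, because the authors kept only read pairs on a terminal 3′UTR stretch of at most 500 bp per annotated transcript, and a pair that falls on overlapping segments is given to neither. Lamb1 had 0 counts in all 10 libraries: its segments of 151 and 146 bp (chr12:31379493-31379643 and chr12:31379493-31379638, plus strand, GRCm39) leave 5 bp that belong to only 1 of them. The 0 is therefore no measure of Lamb1 expression, and the ratio of Lamb2 to Lamb1 could not be formed. Lamc1 has a pair of identical 500 bp segments at its 3′ end with 0 counts. All 560 Lamc1 counts lie on a segment of a transcript annotated for nonsense-mediated decay (chr1:153104561-153105060, minus strand), 9964 bp upstream, made of 185 coding bases and 315 intronic bases of the canonical transcript. Itga6 has 13 bp of its own on each of its overlapping terminal segments, drew 57 counts over the 10 libraries and did not pass the filter on low counts. Thus 9 of the 10 genes had counts and 8 were tested.

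Lama2, Lama4, Lama5 and Lamb2 were each counted on 1 segment that ends at the end of the canonical transcript and lies within its 3′UTR, on 210, 155, 174 and 110 bp respectively. The 784 Itga7 counts lie on 1 segment (chr10:128793649-128794148, plus strand), of which 72 bp, 69 of them coding, are not shared. Itgb1 was counted on 3 segments and Ilk on 4. The Ilk segments with counts belong to transcripts annotated for nonsense-mediated decay and hold intronic bases of the canonical transcript, while the segments of both Ilk coding transcripts had 0 counts. All Ilk segments, and 85 bp of the Lama5 segment, overlap exons of a gene on the opposite strand (Taf10 and Adrm1). Strand was used in the counting: of 28 segments covered in full by segments of the opposite strand and by none of their own, 27 had counts, whereas 246 of 15847 segments covered in full on their own strand did.

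Of the 8 genes tested, Lama5 and Lamb2 rose in ASO, Lamc1 and Ilk fell, and Lama2, Lama4, Itga7 and Itgb1 were not past the threshold. These are 2 of 8 higher and 2 of 8 lower, beside 11.8% and 17.4% of all genes tested. DESeq2 with default settings called the same number of them in each direction, against 10.8% and 14.4% of 10267 genes. The groups did not overlap for Lama5, higher in ASO, and for Lamc1, lower in ASO, a separation found upward in 7.97% and downward in 13.4% of the genes tested. The plot of levels by library shows the 9 genes with counts.

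**Figure D1:**
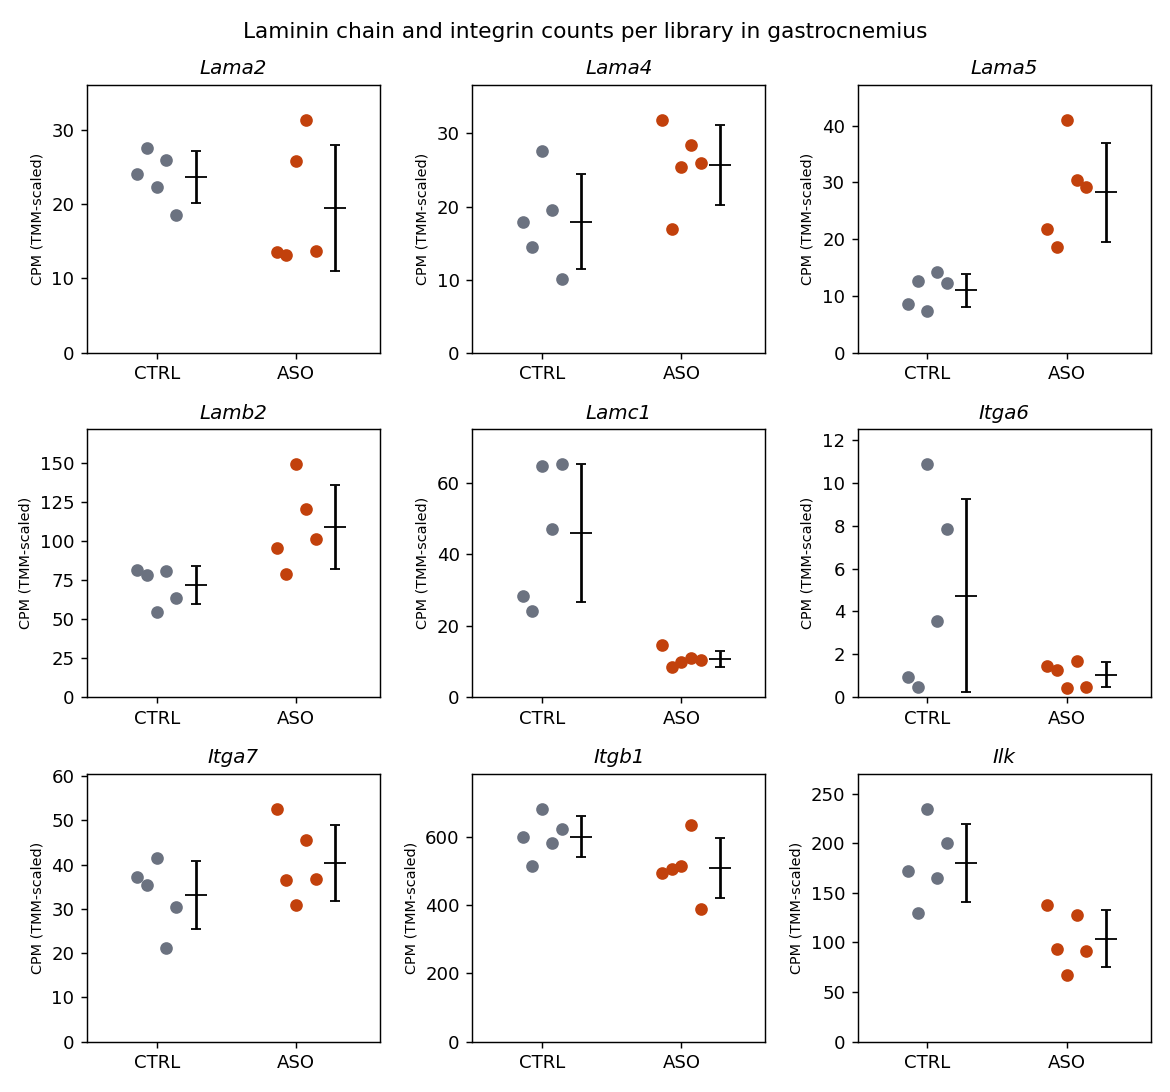
Normalized counts (CPM of the TMM-scaled library size, linear axes from 0) of the 9 genes with counts in each of 5 CTRL (gray) and 5 ASO (orange) libraries, with the mean and SD in black. Lama5 lies higher and Lamc1 lower in each ASO library than in each CTRL library, and Itga6 is at 10.9 CPM or less throughout.

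Lama5, an α chain of vessel and synaptic basement membranes (ENSMUSG00000015647, chr2:179818166-179818339, minus strand), showed the largest increase among the 8. Its level was 8.49, 12.6, 7.41, 14.2 and 12.4 CPM in CTRL replicates 1 to 5 and 21.7, 18.7, 41.0, 30.5 and 29.2 CPM in ASO replicates 1 to 5. Each treated library exceeded each control, with the lowest treated value at 18.7 CPM and the highest control value at 14.2 CPM. The means were 28.2 ± 8.70 CPM in ASO against 11.002 ± 2.90 in CTRL, and the log2 fold change was 1.36 ± 0.26 (SE, adjusted p = 0.0026, edgeR). The two-sided exact permutation test of log2 CPM, given without adjustment here and below, had p = 0.0079, the smallest that 5 libraries against 5 allow. Behind these values are 44 to 97 counts per ASO library and 15 to 27 per CTRL library. The increase kept its direction in each alternative fit that had a value for it, with log2 fold changes from 1.12 to 1.49. It stayed past the threshold in each of these fits for which an adjusted p was taken, that is, all but DESeq2 with ashr.

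Lamb2, the β chain enriched at the neuromuscular synapse (ENSMUSG00000052911, chr9:108367620-108367729, plus strand), had the highest level per length of the laminin chains with counts. It was at 81.6, 77.9, 54.4, 80.8 and 63.5 CPM in CTRL replicates 1 to 5 and at 95.1, 79.0, 149, 120 and 101 CPM in ASO replicates 1 to 5. The groups overlapped by a single treated library, ASO replicate 2, and the other 4 lay above all controls. With means of 109 ± 26.8 CPM in ASO and 71.6 ± 12.1 CPM in the controls, the log2 fold change was 0.60 ± 0.19 (SE, adjusted p = 0.027, edgeR; two-sided exact permutation p = 0.024). This call was close to the threshold. It was lost with scaling by total counts (0.43, adjusted p = 0.086, edgeR), where the median of all genes moved from −0.03 to −0.21 on the log2 scale, and without CTRL replicate 3 (0.52, adjusted p = 0.057, edgeR) or CTRL replicate 5 (0.56, adjusted p = 0.066, edgeR). It was also lost when only the most distal counted segment of each gene entered the fit (0.37, adjusted p = 0.14, edgeR), in which 6.39% of 6075 genes were higher and 9.91% lower, and when only segments within the canonical 3′UTR did (0.49, adjusted p = 0.064, edgeR), a fit chosen after seeing the data.

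Lama4, the α chain of endothelial and nerve basement membranes (chr10:38986030-38986184, plus strand), was at 17.9, 14.5, 27.7, 19.5 and 10.1 CPM in CTRL replicates 1 to 5 and at 31.9, 17.0, 25.4, 28.4 and 25.9 CPM in ASO replicates 1 to 5. The groups overlapped, and 2 treated libraries lay above all controls. On the log2 scale the difference, 0.52 ± 0.26 (SE), did not exceed the spread between libraries (adjusted p = 0.15, edgeR; two-sided exact permutation p = 0.095). Without CTRL replicate 3, the highest control, it was 0.72 and past the threshold (adjusted p = 0.046, edgeR).

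Lama2, the main α chain of the fiber surface (chr10:26857281-26857490, minus strand), was at 24.1, 27.5, 22.2, 26.0 and 18.5 CPM in CTRL replicates 1 to 5 and at 13.5, 13.2, 25.8, 31.3 and 13.7 CPM in ASO replicates 1 to 5. The treated libraries were split, with replicates 1, 2 and 5 lower than all controls and replicate 4 higher than all of them. The means, 19.5 ± 8.50 CPM in ASO and 23.7 ± 3.49 CPM in CTRL, did not differ beyond the spread (log2 fold change −0.27, standard error 0.27, adjusted p = 0.47, edgeR; two-sided exact permutation p = 0.21).

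Lamc1, the γ chain shared by the laminins above (ENSMUSG00000026478), drew 60, 52, 131, 80 and 116 counts in CTRL replicates 1 to 5 and 30, 20, 23, 26 and 22 in ASO replicates 1 to 5 on its upstream segment. In CPM these were 28.3, 24.2, 64.7, 47.2 and 65.2 in CTRL, against 14.5, 8.50, 9.73, 10.9 and 10.4 in ASO. Each treated library was lower than each control, and CTRL replicates 1 and 2 were the lowest of their group. The mean fell from 45.9 ± 19.4 to 10.8 ± 2.25 CPM, and the log2 fold change was −2.08 ± 0.30 (SE, adjusted p = 5.3e-04, edgeR; two-sided exact permutation p = 0.0079). This value belongs to the segment with intronic bases, and the 3′ end of the Lamc1 coding transcript has no value in the table.

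**Figure D2:**
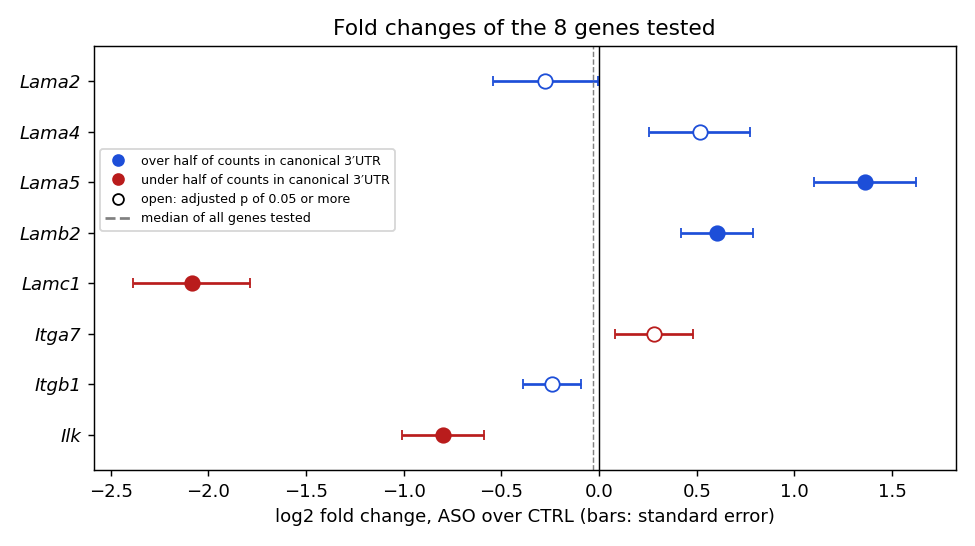
Log2 fold change (ASO over CTRL, horizontal axis) with its standard error for the 8 genes that passed the filter on low counts; filled points have an adjusted p under 0.05, blue marks genes with over 50% of their counts within the canonical 3′UTR and red the others, and the dashed line is the median of all genes tested, −0.03. Lama5 and Lamb2 lie to the right in blue, Lamc1 and Ilk to the left in red.

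Among the receptor genes, Itga7, the laminin-binding α subunit of mature fibers (ENSMUSG00000025348), was at 37.3, 35.4, 41.5, 21.2 and 30.3 CPM in CTRL replicates 1 to 5 and at 52.6, 36.5, 30.9, 45.5 and 36.8 CPM in ASO replicates 1 to 5. The groups overlapped, with 2 treated libraries above all controls. The log2 fold change was 0.28 ± 0.20 (SE, adjusted p = 0.32, edgeR; two-sided exact permutation p = 0.21). Itga6, the α subunit of satellite cells, endothelium and Schwann cells, had 2, 1, 22, 6 and 14 counts in CTRL replicates 1 to 5 and 3, 3, 1, 4 and 1 in ASO replicates 1 to 5. CTRL replicates 3, 4 and 5 stood above all other libraries, and most other values were at or under the floor of 3 counts per library, so no fold is given.

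Itgb1, the β subunit that pairs with both (ENSMUSG00000025809), was at 601, 515, 682, 582 and 622 CPM in CTRL replicates 1 to 5 and at 494, 506, 516, 636 and 388 CPM in ASO replicates 1 to 5, summed over its segments. Although 3 treated libraries were lower than all controls, the summed difference of −0.24 ± 0.15 (SE) on the log2 scale did not exceed the spread between libraries (adjusted p = 0.24, edgeR; two-sided exact permutation p = 0.11). Fitted one by one, 16% of 10652 segments were higher and 24.7% lower in ASO, and the Itgb1 segments differed from one another. On the distal segment (chr8:129459182-129459681, plus strand, 937 bp from the canonical end, 60.5% of the counts), the means were 357 ± 60.7 CPM in ASO against 312 ± 27.3 CPM in the controls, and the log2 fold change of 0.19 was not past the threshold (adjusted p = 0.33, edgeR). On the middle segment (chr8:129458599-129459098), they were 119 ± 33.8 and 170 ± 26.5 CPM, with a log2 fold change of −0.51 (adjusted p = 0.047, edgeR). On the most upstream segment (chr8:129458371-129458870), which holds 133 intronic bases of the canonical transcript, they were 43.7 ± 15.5 and 115 ± 21.9 CPM without overlap, a log2 fold change of −1.40 (adjusted p = 5.9e-04, edgeR).

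Ilk, the pseudokinase that anchors actin at Itgb1 (ENSMUSG00000030890), was at 172, 130, 235, 165 and 200 CPM in CTRL replicates 1 to 5 and at 138, 93.5, 67.7, 128 and 91.5 CPM in ASO replicates 1 to 5. Only ASO replicate 1 reached into the range of the controls. The mean fell from 180 ± 39.5 to 104 ± 28.7 CPM, and the log2 fold change was −0.80 ± 0.21 (SE, adjusted p = 0.014, edgeR; two-sided exact permutation p = 0.016). By segment, the log2 fold change was −1.21 at 1801 bp from the canonical end (chr7:105390167-105390381, plus strand, adjusted p = 9.5e-04, edgeR), −0.69 at 961 bp (chr7:105390722-105391221, adjusted p = 0.024, edgeR) and −0.23 at 199 bp (chr7:105391484-105391983, adjusted p = 0.49, edgeR). The plot of fold change by segment shows the same order in Itgb1 and Ilk.

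**Figure D3:**
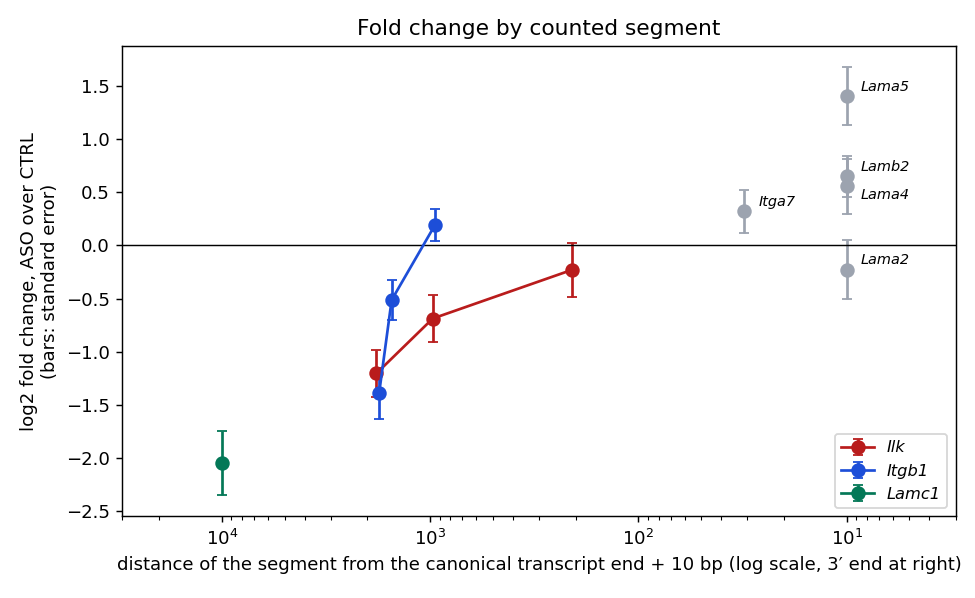
Log2 fold change with its standard error (vertical axis) of each tested segment against its distance from the end of the canonical transcript (log axis, 10 bp added, 3′ end at the right). Itgb1 runs from −1.40 upstream to 0.19 on its distal segment, Ilk from −1.21 to −0.23, and Lamc1 stands alone at 9964 bp.

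This order was common in the table. Of 2042 genes with at least 2 tested segments 500 bp or more apart, 89.0% had a lower log2 fold change on the most upstream than on the most distal segment, with a median difference of −1.22. The difference was −1.59 for Itgb1 and −0.98 for Ilk, and 37.1% and 59.3% of these genes respectively had a more negative one. Among all segments tested, 49.2% of those more than 1000 bp from the canonical end were lower in ASO and 6.95% higher, whereas of those within 200 bp 5.66% were lower and 23.9% higher. Lamc1 and the most upstream segments of Itgb1 and Ilk belong to the former class and Lama5 and Lamb2 to the latter. Lama2, Lama4, Itga7 and the Ilk segment at 199 bp belong to the latter class too and were not past the threshold. The part of this shift in the changes of the genes described here was not tested.

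Ratios inside a library do not depend on its scaling. The log2 ratio of Lama2 to Lama4 counts was 0.42, 0.92, −0.31, 0.41 and 0.86 in CTRL replicates 1 to 5 and −1.22, −0.36, 0.02, 0.14 and −0.91 in ASO replicates 1 to 5, with CTRL replicate 3 inside the treated range. Its mean was 0.46 ± 0.49 in CTRL and −0.47 ± 0.59 in ASO, a difference of −0.92 (two-sided exact permutation p = 0.040, 1 of 2 planned ratios that could be computed, unadjusted). This p did not hold up when libraries were left out, since it was 0.063 or more when any of CTRL replicates 1, 2, 4 and 5 and ASO replicates 1, 2 and 5 was removed. For Itga7 to Itga6 the log2 ratio was 5.10 ± 0.53 in ASO and 3.39 ± 1.80 in CTRL, a difference that did not pass the threshold (two-sided exact permutation p = 0.13). With Itga6 at 4 counts or fewer in each ASO library, the treated values of this ratio are set largely by the floor and the 0.5 added to each count.

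Other ratios were chosen after the values were seen and are given without a test. The log2 ratio of Lama5 to Lama2 was between −1.55 and −0.57 in CTRL and between −0.04 and 1.08 in ASO, and that of Lamb2 to Lama2 between 1.28 and 1.76 in CTRL and between 1.93 and 2.87 in ASO. Both sets were without overlap, as was Lama5 taken alone, whereas Lama4 against Lama2, above, overlapped. Itgb1 counts on upstream over distal segments had a log2 ratio between −0.37 and 0.18 in CTRL and between −1.71 and −0.76 in ASO. How often ratios of other genes or segments separate the groups in this way was not tested.

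**Figure D4:**
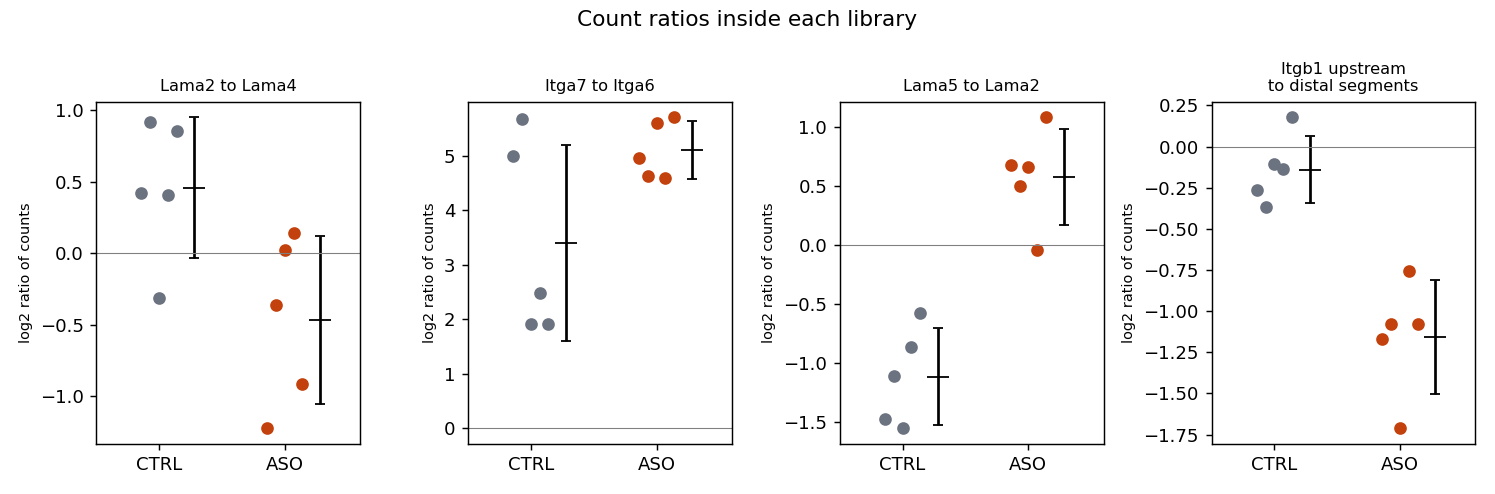
Log2 ratios of counts inside each library (vertical axes) in 5 CTRL (gray) and 5 ASO (orange) libraries, with the mean and SD in black. The groups overlap for Lama2 to Lama4 and Itga7 to Itga6 and are apart for Lama5 to Lama2 and for upstream to distal Itgb1 segments.

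Per kilobase of unshared segment, the CTRL level was highest for Lamb2 (651 ± 110 CPM per kb) and Itgb1 (628 ± 63.6), whose ranges overlapped. Itga7 (460 ± 108), whose range overlapped those of Lamb2 and Itgb1, and Ilk (210 ± 46.0) followed, apart from each other. Next came Lama4 (116 ± 42.1), Lama2 (113 ± 16.6), Lamc1 (91.9 ± 38.8) and Lama5 (63.2 ± 16.6). The range of Lama4 overlapped those of Ilk, Lama2, Lamc1 and Lama5, and the range of Lamc1 those of Lama2 and Lama5. Itga6 came last (9.01 ± 8.58). In ASO, Lama5 was at 162 ± 50.02 and Lama4 at 166 ± 35.5 CPM per kb, with overlapping ranges, and Lamc1 was at 21.6 ± 4.50. How pairs that lie only partly on an unshared stretch were counted was not tested, so levels on short stretches, such as the 72 bp of Itga7 and the 110 bp of Lamb2, may be off in either direction, and the order carries this limit. The Lamc1 and Ilk values come from segments that hold intronic bases, so their places in the order do not rank their coding transcripts.

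Of 23 other integrin subunits, 7 were tested, 1 rose, 1 fell and 5 were not past the threshold. Among all genes tested, 11.8% rose and 17.4% fell. The list had a median of 0.05 on the log2 scale, where all genes tested had −0.03. The sign of this median turned with total-count scaling, to −0.14, and when any of CTRL replicates 1, 2 and 5 and ASO replicates 1, 4 and 5 was removed, to as low as −0.14. Itgb5, a vitronectin receptor subunit, went from 80.4 ± 6.52 to 103 ± 8.75 CPM (adjusted p = 0.037, edgeR), and Itgav, its α partner, from 29.2 ± 14.8 to 2.33 ± 1.20 CPM (adjusted p = 1.6e-04, edgeR). With any of CTRL replicates 2 to 5 removed, with ASO replicate 5 removed, with total-count scaling or on the most distal counted segment, 0 of the subunits rose, and with upper quartile scaling 2 did. The counted Itgav segment lies 2931 bp from the canonical end, that of Itgb5 185 bp. The main segments of the 5 not past the threshold lie within 353 bp of it.

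Partners of laminin in the basement membrane were lower or not past the threshold. Of 21 listed, 8 were tested, 3 fell and 0 rose in edgeR, where 17.4% of all genes tested fell and 11.8% rose. At an unadjusted p under 0.05, in DESeq2 and in limma-voom, 0 were higher as well. The list median was −0.25 on the log2 scale, and 0.07 without CTRL replicate 3. Nid1, the nidogen that ties laminin to collagen IV, fell from 226 ± 119 to 92.0 ± 45.7 CPM (adjusted p = 0.018, edgeR), on a segment 6 bp from the canonical end. Col4a1, a collagen IV chain, fell from 190 ± 122 to 83.1 ± 26.2 CPM (adjusted p = 0.028, edgeR), and Smoc2, a matricellular protein, from 26.7 ± 6.29 to 8.86 ± 3.18 CPM (adjusted p = 0.0014, edgeR). Only Smoc2 was without overlap between the groups, a downward separation found in 13.4% of all genes tested. The segments of Col4a1 and Smoc2 lie 1096 and 0 bp from the canonical end. Without ASO replicate 3 or 5, 1 gene of the list was lower. Col4a2, the chain that pairs with Col4a1, was at 231 ± 75.2 CPM in ASO and 261 ± 146 CPM in CTRL (adjusted p = 0.70, edgeR), on a segment at the canonical end. Dag1, which encodes dystroglycan, the other laminin receptor of the fiber, was at 336 ± 40.3 CPM in ASO and 301 ± 47.7 CPM in CTRL (adjusted p = 0.44, edgeR).

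Adaptors that join integrins to the cytoskeleton moved both ways. Of 28 listed beside Ilk, 18 were tested, 6 rose and 4 fell, where 11.8% of all genes tested rose and 17.4% fell. The list median was 0.16 on the log2 scale, beside −0.03 for all genes tested. Total-count scaling turned the list median to −0.03 with 3 higher. Without CTRL replicate 5, 3 were higher, and on the most distal counted segment 3 were higher and 2 lower. The talins Tln2 and Tln1, which activate integrins, had log2 fold changes of 0.82 (adjusted p = 0.0037, edgeR) and 0.64 (adjusted p = 0.027, edgeR). Fermt2, the kindlin of muscle, rose from 241 ± 49.5 to 400.2 ± 83.5 CPM (adjusted p = 0.011, edgeR). Ilkap, a phosphatase that binds Ilk, had a log2 fold change of 0.67 (adjusted p = 0.0047, edgeR). Lims1, the PINCH adaptor of the Ilk complex, fell from 32.9 ± 14.9 to 2.96 ± 1.28 CPM (adjusted p = 1.4e-04, edgeR), whereas Lims2 was at 0.09 on the log2 scale (adjusted p = 0.82, edgeR). Rsu1, which binds PINCH, Tns1, a tensin, and Crk, a focal adhesion adaptor, had log2 fold changes of −1.01, −0.99 and −0.74. The main counted segments of the 6 that rose lie within 128 bp of the canonical end, and those of Lims1, Rsu1, Tns1 and Crk at 2922, 139949, 3680 and 846 bp. Those of the 8 not past the threshold also lie near that end, within 7 bp, except Itgb1bp1 at 898 bp. The part of segment position in these calls was not tested.

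**Figure D5:**
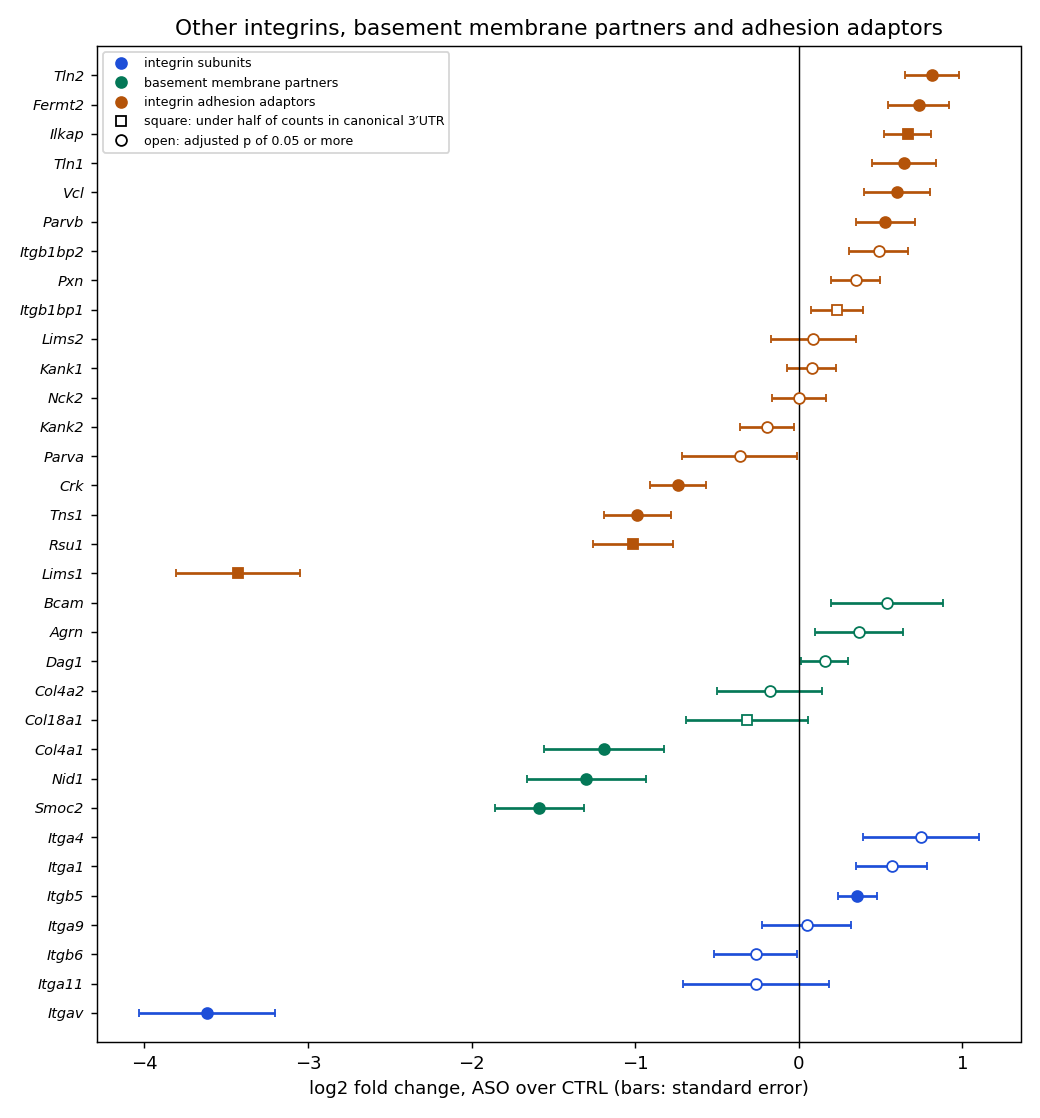
Log2 fold change (ASO over CTRL, horizontal axis) with its standard error of the tested genes from the lists of other integrin subunits (blue, 7), basement membrane partners (green, 8) and adhesion adaptors (orange, 18). Filled symbols have an adjusted p under 0.05 and squares mark genes with under 50% of their counts within the canonical 3′UTR; Tln2 (0.82) is farthest to the right and Itgav and Lims1 lie farthest to the left.

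In whole muscle, fewer cells of a type and less RNA per cell cannot be told apart. Calls for the marker lists below stand beside 11.8% higher and 17.4% lower among all genes tested in edgeR. Median log2 fold changes were 0.32 for endothelial, 0.39 for mural, 0.29 for Schwann cell and 0.17 for satellite cell markers. They were −0.99 for fibro-adipogenic, −1.01 for macrophage and −0.93 for adipocyte markers, beside −0.03 for all genes tested. Without CTRL replicate 3 these 3 medians were −0.34, −0.30 and 0.35 in that order. Of the 10 endothelial markers, whose cells make Lama4 and Lama5, 8 were tested in edgeR and 0 passed the threshold (1 higher and 0 lower at an unadjusted p under 0.05, and 0 by DESeq2 and limma-voom), with a summed level of 263 to 458 CPM in CTRL and 252 to 557 CPM in ASO. The defining marker Pecam1 had 5 counts in all, on a segment 7579 bp from its canonical end, and Cdh5 was at 77.7 ± 11.51 CPM in CTRL and 99.6 ± 42.2 CPM in ASO. In 3 of the fits with a library left out, endothelial markers were called higher, namely 1 without ASO replicate 1 or 2 and 2 without CTRL replicate 1. Of 8 mural cell markers 6 were tested and 1 rose, Acta2, and the sums overlapped (590 to 1220 CPM in CTRL, 478 to 1567 CPM in ASO). No mural marker was called by limma-voom, with total counts, on the most distal counted segment or when any of ASO replicates 3, 4 and 5 and CTRL replicates 2, 3 and 5 was removed. Of 8 Schwann cell markers 4 were tested and 0 passed the threshold in edgeR, also unadjusted, in DESeq2 or in limma-voom (81.6 to 167 CPM in CTRL, 41.0 to 568 CPM in ASO), while 1 was higher without ASO replicate 1 and 1 lower without ASO replicate 4.

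Of 10 fibro-adipogenic markers, from cells that also make Lama2, Nid1 and Col4a1, 7 were tested and 2 fell, beside 17.4% of all genes tested. The sums, 510 to 1983 CPM in CTRL and 200 to 978 CPM in ASO, overlapped. Without ASO replicate 4, 4 of the markers were lower. In the main fit, the 5 not past the threshold had log2 fold changes from −1.18 (Col3a1) to 0.36 (Col1a1). Lum, a small proteoglycan, fell from 160 ± 30.8 to 48.6 ± 22.8 CPM (adjusted p = 0.0014, edgeR), 12 bp from its canonical end, and Cd34, a surface sialomucin, from 40.6 ± 17.5 to 5.73 ± 2.52 CPM (adjusted p = 4.2e-04, edgeR), 2743 bp from its own. Of 8 macrophage markers 6 were tested and 1 fell, Mrc1 (261 to 1609 CPM in CTRL, 74.0 to 575 CPM in ASO), but 0 were lower by limma-voom or when any of ASO replicates 1, 2, 3 and 5 and CTRL replicates 3, 4 and 5 was removed. Of 8 adipocyte markers 6 were tested and 0 passed the threshold in edgeR (1 lower at an unadjusted p under 0.05), DESeq2 or limma-voom (3889 to 24156 CPM in CTRL, 4572 to 12822 CPM in ASO), and 1 was lower without CTRL replicate 1. Of 7 satellite cell markers 5 were tested and 1 rose, Sdc4 (131 to 240 CPM in CTRL, 181 to 394 CPM in ASO), and 0 were higher on the most distal counted segment. The part of these cell types in the values of the laminin and integrin genes was not tested.

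By the mean absolute difference of centred log2 CPM over the 10 libraries, the tested genes most like Lama5 were Cdk2ap1 (0.191) and Gps2 (0.198). Those most like Lamb2 were Emsy (0.0772) and Vdac2 (0.0948). Ncoa2 (0.229) and Zfp526 (0.232) came closest to Lamc1, and Nisch (0.137) and Eif2ak3 (0.147) to Ilk. These values include the difference between the groups and are a description only.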

How the data were processed

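Stranded mRNA libraries of gastrocnemius RNA were sequenced as paired ends. Per the study's methods and processing notes, the authors used fastp for trimming, STAR for alignment (GRCm39) and featureCounts to count pairs on terminal 3′UTR segments of at most 500 bp, and deposited these counts without normalization. The versions of STAR and featureCounts are not given in the sources used here, and the stated counting parameters name no strand option. Of 52423 segments, 52361 were matched by transcript identifier to GENCODE on GRCm39 and summed per gene; the study names an older GENCODE release than the one used here for transcript types and distances; the other 62 hold 0.0197% of counts and were left out, as were 4 other per-sample columns. Totals between 1606909 and 2632560 limit the precision, and a floor of 3 counts covers counting error only.

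Genes were tested in edgeR 4.0.16 (R 4.3.3) with TMM, filterByExpr by group and an adjusted p threshold of 0.05; the standard error is the log2 fold change over the root of F. On simulated data with 200 changed genes, edgeR recovered 143 of the 192 that were tested, among 7924 genes, with 4 false calls. In the deposited counts 29.2% of genes were called, a larger share than was simulated. Whether these rates carry over was not tested. Ratios are log2 of counts plus 0.5. DESeq2 1.42.0, with and without ashr 2.2.63, limma-voom (limma 3.58.1), other scalings, filters and segment choices, libraries drawn down to the smallest total, the replicate number as a block and each library left out were alternatives. Fits per segment, the factors from protein-coding transcripts, the canonical 3′UTR fit and 3 ratios were added after seeing the data. Named genes are the 10 genes and those of each list past the threshold, up to 8 by adjusted p. The 2 genes most like each called one of the 10 are named too. Dag1, Lims2, Itgb1bp1, Col4a2, Col1a1, Col3a1, Pecam1, Cdh5, Acta1 and the myofiber markers at or near 0 were named after their values were seen. The genes and lists were chosen with earlier results of these data known. The list of other laminin chains is not reported here. A planned adjustment of exact p-values over the 10 genes was not made.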

Additional observations from a re-analysis of the deposited data

How the results depend on the processing

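In the fits per gene, Lama5, Lamc1 and Ilk kept their direction under each alternative that gave them a value, and their call under each with an adjusted p. Fitted by segment, Ilk was not past the threshold on its segment 199 bp from the canonical end (−0.23, adjusted p = 0.49, edgeR). DESeq2 with ashr gave a log2 fold change only, and the values of −1.87 for Lamc1 and −0.63 for Ilk below are from it. Over the settings other than a left-out library the log2 fold change ran from 1.12 to 1.45 for Lama5, from −2.34 to −1.87 for Lamc1 and from −0.98 to −0.63 for Ilk. Ilk has no value on its most distal counted segment, which holds 21 counts, nor without segments that overlap other genes, where Lama5 has none either, and neither Lamc1 nor Ilk has one within the canonical 3′UTR. With total counts, the most distal counted segment or only the canonical 3′UTR, 1 of the genes was higher, since Lamb2 lost its call. With segments without overlap 1 was higher as well, since Lama5 has no value there. For lack of values, 1 was lower on the most distal counted segment, 1 on segments without overlap and 0 within the canonical 3′UTR. With a library left out, 1 to 2 were higher (1 without CTRL replicate 5) and 2 lower. Without CTRL replicate 3, Lama4 was called in place of Lamb2.

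Same-numbered libraries of the groups did not deviate together (correlations from −0.42 to 0.14). These correlations gave no sign of a pairing by number, but they cannot exclude one. With the replicate number as a block, 1 gene was higher, since Lamb2 was at 0.58 (adjusted p = 0.075, edgeR). The Lama2 to Lama4 difference stayed at −0.92 (p = 0.19, exact sign-flip permutation test). With 5 pairs this test cannot give a p under 0.05, so it decides nothing here.

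With a library left out, the difference in the log2 ratio of Lama2 to Lama4 ran from −1.12 to −0.74, and that of Itga7 to Itga6 from 1.34 to 2.28, the latter without CTRL replicate 2 (two-sided exact permutation p = 0.032). Drawing libraries down to the smallest total gave −1.23 for the former. Total counts turned the list medians of integrin subunits to −0.14 and adaptors to −0.026. With a library left out, the medians that turned ran from −0.14 to 0.082 for integrin subunits, from −0.54 (without ASO replicate 4) to 0.59 for Schwann cell markers, and, with the upper value without CTRL replicate 3, from −0.40 to 0.072 for basement membrane partners and from −1.34 to 0.35 for adipocyte markers. In the exact test of log2 CPM with total counts, Lamb2 was at 0.41 (two-sided exact permutation p = 0.056) and Itgb1 at −0.43 (p = 0.032, exact permutation).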
